A study of Mus musculus with 10 samples.

Results

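Open chromatin was examined at 9 genes of heme synthesis, Alas1, Alas2, Alad, Uros, Urod, Cpox, Ppox, Fech and Abcb10, during erythroid differentiation of mouse G1E-ER4 cells. The members were given by name from knowledge of the pathway, which has more enzymes than are listed here. They were not picked by a measured value, but earlier results of these data were known when they were chosen. Peak summits from 50 kb before to 50 kb after each gene span were collected from 10 libraries, widened by 250 bp on each side and merged where they overlapped. This gave 61 regions around the 9 genes, of 28981 regions genome-wide and 21853 protein-coding genes.

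G1E-ER4 is a subclone of a Gata1-null mouse erythroid line that expresses GATA1 fused to the ligand-binding domain of the estrogen receptor, so that β-estradiol switches on GATA1, the master regulator of red cell genes. ATAC-seq marks open DNA by the insertion of adaptors with the Tn5 transposase. Cells were taken without β-estradiol (0 h) and after 2, 6, 12 and 24 h at 1e-07 M, with 2 libraries per time point from about 50000 cells each. All groups, the 0 h group included, lack endogenous Gata1, carry the fusion protein and were grown with stem cell factor and erythropoietin, and no group was kept for 24 h without β-estradiol. The data come from a single subclone. The study calls its replicates independent experiments, and whether they were separate cultures is not stated. The lists held 10698 to 19859 peaks on chromosomes 1 to 19, X and Y, but neither read counts nor library depth. A missing peak therefore means only that it was not called. A region is named here by the gene and the distance of its median summit from the gene start, with + for downstream, and the strength of a peak is given as its rank by score in its own list, where 1 is the highest score.

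Heme synthesis begins and ends in the mitochondrion, with steps in the cytosol between. ALAS joins glycine and succinyl-CoA in the first and rate-limiting step. Alas1 encodes the form found in all tissues, and the X-linked Alas2 the erythroid form, whose mutations cause sideroblastic anemia. The following enzymes assemble and modify the tetrapyrrole ring, ferrochelatase inserts the iron, and ABCB10 is a mitochondrial inner membrane transporter needed for hemoglobin production. GATA1 is known to bind intronic enhancers of erythroid heme genes, including Alas2.

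The members had peaks at promoters and in introns, and 5 of the intronic regions are shown by sequence. The 100 bp on each side of their median summits (mm10, along the strand of the gene, 5′ to 3′) are shown because the first 3 hold a GATA motif (AGATAA or TGATAA, either strand), in capitals, whereas the last 2 hold none. In those 2 the capitals mark matches to the KLF motif CCNCNCCC on either strand. The GATA motif as searched leaves out AGATAG and TGATAG, and such runs, not in capitals, occur in both of those windows. Alas2 +2.5 kb (chrX:150549751-150549951, + strand) is in intron 1 and Alas2 +17.5 kb (chrX:150564763-150564963, + strand) in intron 8. Alad +3.1 kb (chr4:62516686-62516886, - strand) is in intron 1, Uros +11.2 kb (chr7:133698027-133698227, - strand) in intron 5, and Abcb10 +4.1 kb (chr8:123978931-123979131, - strand) in intron 1. 
Alas2 +2.5 kb: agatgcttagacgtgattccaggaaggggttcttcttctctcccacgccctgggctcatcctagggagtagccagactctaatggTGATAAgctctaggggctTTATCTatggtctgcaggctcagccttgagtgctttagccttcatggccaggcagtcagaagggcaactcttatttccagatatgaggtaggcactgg
Alad +3.1 kb: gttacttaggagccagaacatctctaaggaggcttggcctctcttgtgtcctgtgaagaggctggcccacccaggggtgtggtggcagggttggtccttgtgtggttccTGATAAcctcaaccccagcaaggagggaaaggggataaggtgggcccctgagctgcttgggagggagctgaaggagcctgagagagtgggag
Uros +11.2 kb: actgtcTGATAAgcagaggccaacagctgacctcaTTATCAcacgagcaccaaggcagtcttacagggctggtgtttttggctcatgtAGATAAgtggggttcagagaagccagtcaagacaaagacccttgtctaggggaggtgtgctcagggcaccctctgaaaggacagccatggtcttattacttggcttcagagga
Alas2 +17.5 kb: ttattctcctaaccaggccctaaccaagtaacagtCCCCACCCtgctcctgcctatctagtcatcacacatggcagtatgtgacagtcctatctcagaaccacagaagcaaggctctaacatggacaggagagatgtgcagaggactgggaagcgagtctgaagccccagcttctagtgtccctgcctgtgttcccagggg
Abcb10 +4.1 kb: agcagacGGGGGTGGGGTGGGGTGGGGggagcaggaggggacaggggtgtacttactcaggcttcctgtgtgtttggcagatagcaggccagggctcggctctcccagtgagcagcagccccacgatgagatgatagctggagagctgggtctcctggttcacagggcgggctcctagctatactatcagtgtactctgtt

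Of the 61 regions, 10 lay at a transcript start of the member itself (within 1 kb), 22 at the promoter of a neighbouring gene and 29 were distal, 8 of them inside the member's own gene. The neighbouring promoters are counted as such and are not ascribed to the heme genes. A member had a median of 7 regions in its window and 3 distal ones, against 3 and 1 over all protein-coding genes. Across libraries, 28 (12 h replicate 1) to 43 (6 h replicate 2) of the 61 regions had a peak, and 15 (24.6%) were in all 10 libraries, against 21.5% of all regions. Of the 15, 10 were neighbouring promoters (45.5% of that class) and 3 were own promoters (30%), against 50.1% of all promoter regions. The other 2 were distal (6.9%), against 6.58% of all distal regions. Where a member region had a peak at a time point, both replicates had it in 64.5% of cases, against 57.2% for all regions. By class, it was 73.9% for own and 77.8% for neighbouring promoters, against 78.6% for all promoter regions. For distal regions it was 44.4%, against 37.8% for all distal regions.

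**Figure D1:**
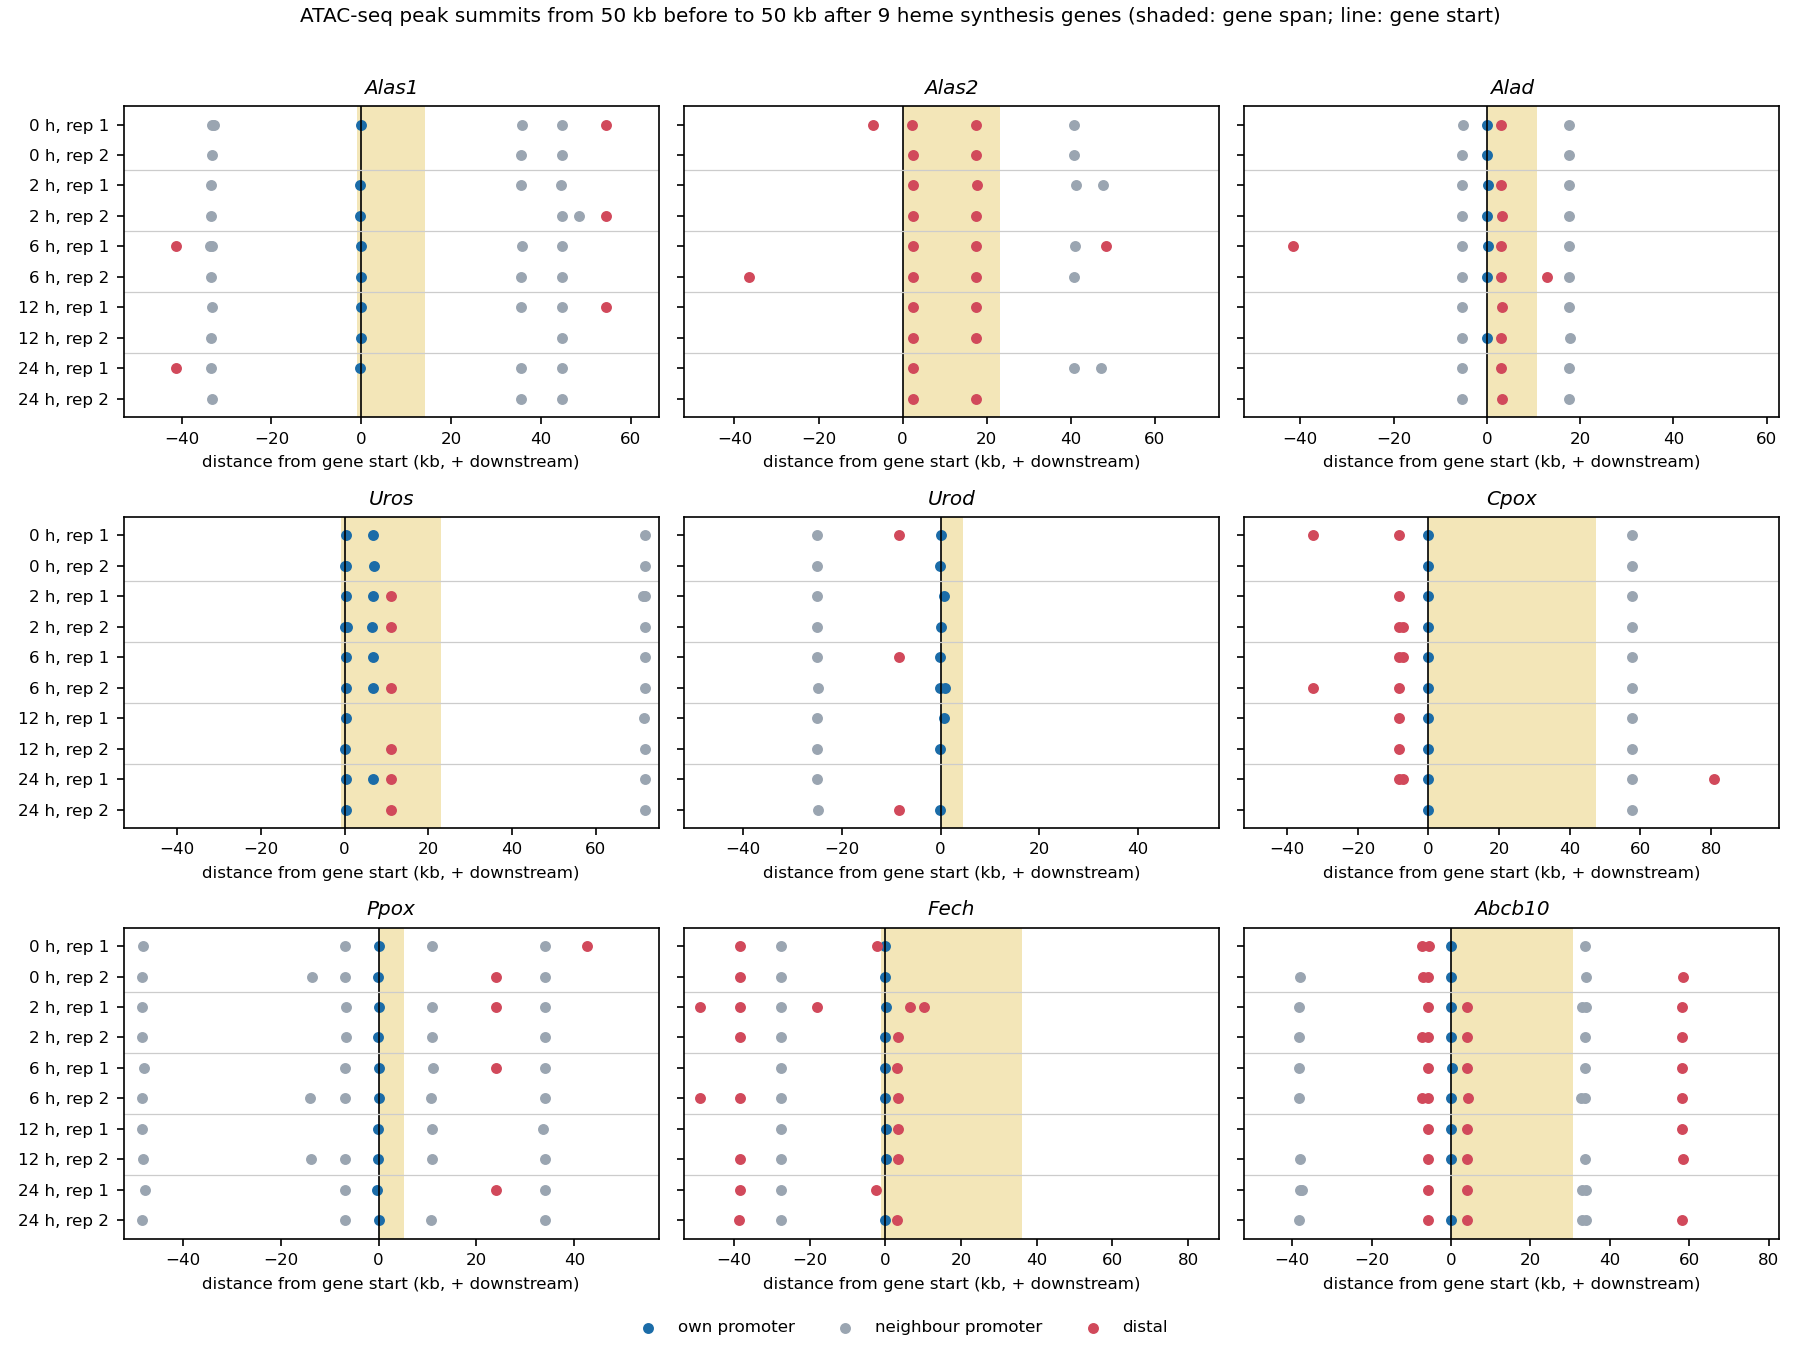
Peak summits around each of the 9 genes, with distance from the gene start in kb on the x axis and the 10 libraries on the y axis, where shading marks the gene span and colour the class of the region. A blue column at 0 stands in most panels, the Alas2 panel has red columns at 2.5 and 17.5 kb and no blue one, and the red column at 4.1 kb in the Abcb10 panel begins at 2 h.

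**Figure D2:**
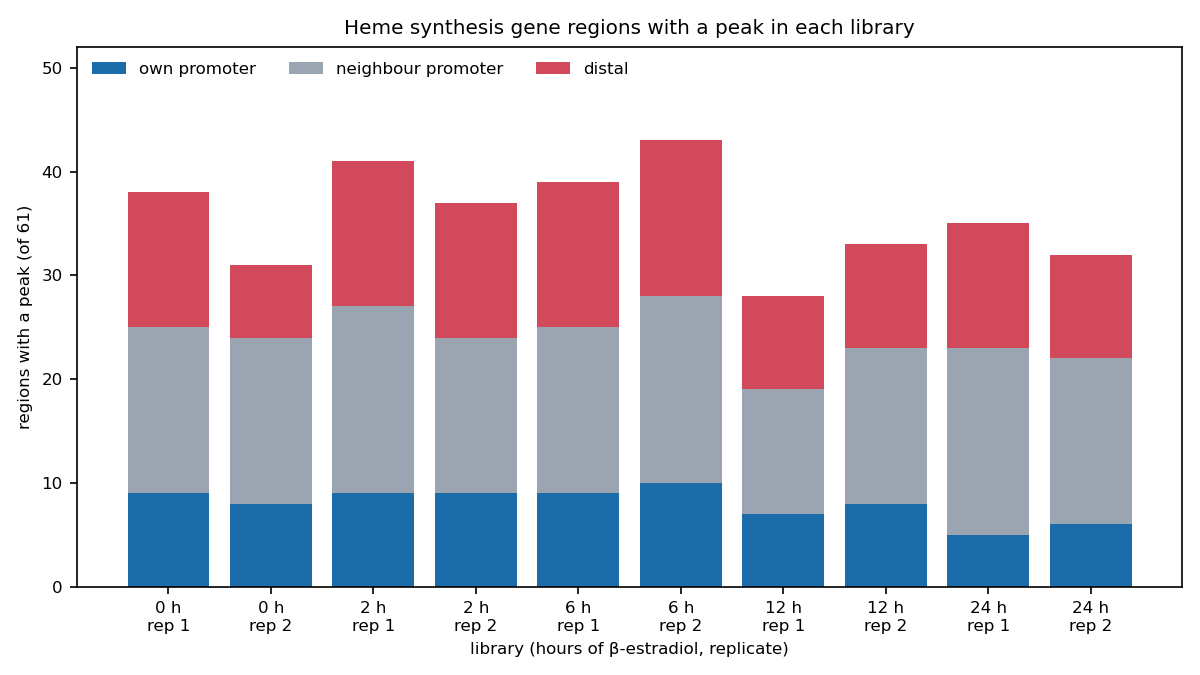
Number of the 61 regions with a peak in each library (y axis), split by class, with the libraries in time order on the x axis. The 24 h libraries have 5 and 6 own promoter regions, and the other 8 have 7 to 10.

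The peaks at the genes' own starts were compared before the time course. Uros, Cpox and Ppox had a promoter peak in all 10 libraries, 3 of 9 members, and the same held for 26.4% of all protein-coding genes. Urod, Fech and Abcb10 had one in 9 libraries, Alas1 in 8, Alad in 7 and Alas2 in none. The library without a promoter peak of Urod, Fech or Abcb10 was 24 h replicate 1 in each case. Of the 6 members with a promoter peak in the 9 other libraries, 3 thus lacked one there. The same held for 128 of the 5890 genes with a promoter peak in the 9 other libraries (0.586% of all 21853 genes). In 24 h replicate 1, 37.5% of all genes had a promoter peak, within the 35% to 42.1% of the other libraries. Without that library, 6 of 9 members had a promoter peak in every remaining library. Its part in the 24 h results below was not tested further than by leaving it out.

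Alas1 (ENSMUSG00000032786.16, chr9:106233455-106248654) had a weak promoter peak, called in 1 of 2 libraries at 0 h (rank 12417), both at 2 h (9658 and 10671), both at 6 h (10618 and 18542), both at 12 h (15156 and 6956) and 1 at 24 h (11010). All but the rank of 6956 lay at 9658 or deeper. The 12 h replicates were the farthest apart, at 98.3% and 50.3% of their lists. With every list reduced to its 10698 best peaks, the promoter peak remained in 4 libraries and in neither 0 h library. Alas1 had no distal region inside its gene, and the 2 distal regions in its window were in 2 and 3 libraries.

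Alas2 (ENSMUSG00000025270.13, chrX:150547375-150570638) differed from the other members in having no summit within 1 kb of a transcript start in any of 10 libraries, as did 55.5% of all protein-coding genes. Its nearest region was Alas2 +2.5 kb in intron 1, which was called in all 10 libraries. The ranks there were 6430 and 3667 (0 h), 1634 and 2932 (2 h), 5611 and 2601 (6 h), 1467 and 6110 (12 h), and 6079 and 2262 (24 h). Both 2 h libraries were above both 0 h libraries, whereas at 6, 12 and 24 h the replicates lay on both sides of the better 0 h rank. This region holds 2 GATA matches, 13 bp before and 5 bp after the median summit. It also holds a match to the TAL1-GATA composite, which is CTG followed after 7 or 8 bases by the GATA motif and overlaps it. Of its 10 summits, 9 lay within 100 bp of each GATA match.

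Alas2 +17.5 kb in intron 8 was already open before GATA1 was switched on. Its ranks were 9591 and 9415 (0 h), 5237 and 11430 (2 h), 10041 and 8963 (6 h), 5391 and 3303 (12 h), and 5764 in the 24 h replicate 2. It had no peak in the 24 h replicate 1. Both 12 h libraries were above both 0 h libraries, and at the other time points the groups overlapped or 1 library had no peak. No AGATAA or TGATAA lies within 100 bp of its median summit, but AGATAG, which was not searched for, does on the opposite strand. The other distal regions of Alas2 were each in 1 library. The region lost at 12 h, Alas2 +40.8 kb, lies at the start of Apex2, a DNA repair gene, and had 0 h ranks of 13781 and 8733. With lists of equal size only 1 of these 0 h peaks remained and the call ended.

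Alad (ENSMUSG00000028393.10, chr4:62509169-62519918), the gene of aminolevulinate dehydratase, had both a promoter region that was not called late and an intronic region that ranked higher late. The promoter region had ranks of 11080 and 5199 (0 h), 15200 and 11630 (2 h), 9655 and 9164 (6 h), and 12616 in the 12 h replicate 2. It had no peak in the 12 h replicate 1 or in either 24 h library, and so was lost at 24 h. This was 1 of the 7 members with a promoter peak in both 0 h libraries, and 1.64% of all such genes lost theirs at 24 h. The call ended with lists of equal size, since the 0 h replicate 1 peak was then left out.

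Alad +3.1 kb, in intron 1, was at rank 11600 in the 0 h replicate 1 and not called in the 0 h replicate 2. It was at 4393 and 7379 (2 h), 3504 and 6237 (6 h), 2113 and 2822 (12 h), and 504 and 5280 (24 h). All 8 later libraries stood above both 0 h libraries, and the rank of 504, the top 3.24% of its list, was the best of any of the 61 regions in any library. The 24 h replicates lay far apart, and the rank of 5280 was below both 12 h ranks. With lists of equal size the region was absent at 0 h and present in all 8 later libraries, and so gained at all 4 time points. It holds a GATA match 12 bp from the median summit, and 8 of 9 summits lay within 100 bp of it.

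**Figure D3:**
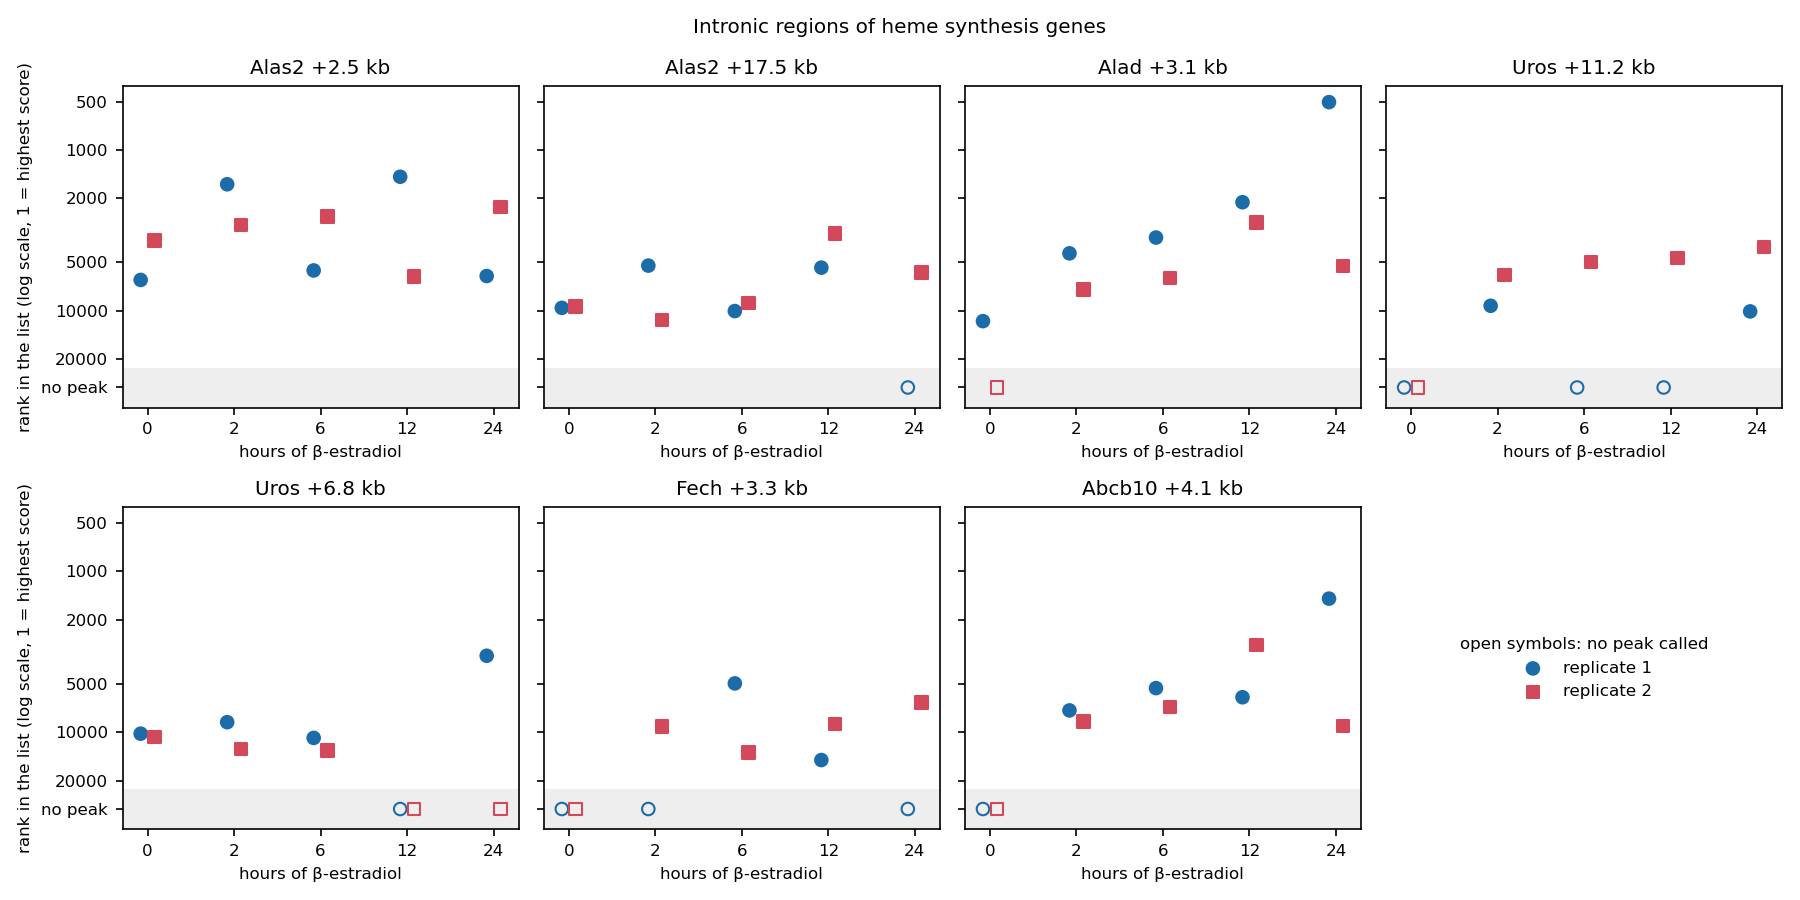
Rank of the best peak (y axis, log scale, high scores at the top) at each time point (x axis) in 7 intronic regions, with replicates 1 and 2 as circles and squares and open symbols for libraries without a peak. Abcb10 +4.1 kb has open symbols only at 0 h, and Alad +3.1 kb moves from 11600 at 0 h to 504 and 5280 after 24 h.

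Uros (ENSMUSG00000030979.13, chr7:133686243-133710072) encodes uroporphyrinogen III synthase, which closes the ring, and had 2 own promoter regions and 1 distal intronic region. The main promoter, Uros +0.3 kb, had ranks of 10094 and 7540 (0 h), 4867 and 7927 (2 h), 5696 and 8861 (6 h), 3652 and 5657 (12 h), and 12249 and 6363 (24 h). As a percent of the list, both libraries of 2, 6 and 12 h (23.7% to 55.5%) were above both 0 h libraries (66.2% and 64.5%), and the 24 h replicates (78.7% and 59.5%) lay on either side. Its window holds a GATA match 3 bp from the median summit that is part of a TAL1-GATA composite. Of its 12 summits, 7 lay within 100 bp of the GATA match.

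In the human gene, a downstream promoter is known to drive erythroid transcripts. A downstream start of mouse Uros had its own region, Uros +6.8 kb (chr7:133702131-133702896), in intron 1 of the longer transcript. Its ranks were 10201 and 10699 (0 h), 8655 and 12674 (2 h), 10839 and 13018 (6 h), and 3343 in the 24 h replicate 1. No peak was called in either 12 h library or in the 24 h replicate 2. It was lost at 12 h as deposited, but with lists of equal size only 1 of the 0 h peaks remained and the call ended. The 0 h rank of 10699 was 1 place beyond the smallest list.

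Uros +11.2 kb, in intron 5, was in neither 0 h library. It was called at 2 h with ranks of 9309 and 5973, and at 24 h with 10089 and 4009. At 6 and 12 h it was called in the replicate 2 only, at 4981 and 4696. The region was thus gained at 2 and 24 h, and in the replicate 2 libraries it was present at every later time point. It holds 3 GATA matches, at 9, 62 and 91 bp from the median summit, the most of any of the 61 regions.

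Urod (ENSMUSG00000028684.14, chr4:116989965-116994413) encodes uroporphyrinogen decarboxylase. Its summits fell in 2 regions on either side of the start, Urod -0.1 kb in 7 libraries and Urod +0.7 kb, in exon 2, in 3. The ranks of Urod -0.1 kb were 13181 and 8249 (0 h), 6489 in the 2 h replicate 2, 10942 and 11198 (6 h), 9276 in the 12 h replicate 2 and 6094 in the 24 h replicate 2. Urod +0.7 kb had its peaks in the 2 h replicate 1 (10309), the 6 h replicate 2 (16731) and the 12 h replicate 1 (14369). The gene had no distal region inside its span, and the only one in its window, Urod -8.4 kb, was in 3 libraries.

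Cpox (ENSMUSG00000022742.6, chr16:58670292-58717636) and Ppox (ENSMUSG00000062729.11, chr1:171275990-171281186) encode the oxidases of the penultimate steps and had the highest-ranked promoters of the 9 genes. Cpox -0.1 kb had ranks of 2065 and 2060 (0 h), 2696 and 2690 (2 h), 693 and 940 (6 h), 1584 and 1032 (12 h), and 4952 and 1253 (24 h). Both 6 h and both 12 h libraries were above the 0 h libraries, and the 24 h replicates lay on either side. Both 2 h libraries were below the 0 h libraries by rank. As a percent of the list, the 2 h libraries (16.7% and 18.8%) overlapped the 0 h libraries (13.5% and 17.6%). Ppox +0.0 kb had ranks of 3629 and 665 (0 h), 2273 and 2775 (2 h), 1314 and 1275 (6 h), 1582 and 2120 (12 h), and 2495 and 916 (24 h). Every later library of Ppox lay between the 0 h replicates. Cpox also had a distal region at -8.3 kb in 1 of 2 libraries at 0 h and 7 of 8 later, with a GATA match within a TAL1-GATA composite and 5 KLF matches. Ppox had no distal region inside its gene, and its 2 distal regions were in 1 and 4 libraries.

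Fech (ENSMUSG00000024588.9), the gene of ferrochelatase on chromosome 18 (64452914 to 64490251), had a promoter peak with ranks of 12066 and 7739 (0 h), 5141 and 8465 (2 h), 11333 and 6513 (6 h), 12300 and 13436 (12 h), and 9249 in the 24 h replicate 2. As a percent of the list, which allows for list length, both 2 h libraries (31.9% and 59.3%) were above both 0 h libraries (79.1% and 66.2%), and both 12 h libraries (79.8% and 97.2%) were below them, with less than 1 point between 79.8% and 79.1%. Fech +3.3 kb (64485566 to 64486133), in intron 1, was in neither 0 h library. It was called at 9205 in the 2 h replicate 2, at 4967 and 13395 (6 h), at 14884 and 8910 (12 h), and at 6542 in the 24 h replicate 2. It was gained at 6 and 12 h, but 2 of its peaks were ranked beyond the smallest list, and with lists of equal size it was in 4 of the 8 later libraries and gained at no time point. The other 2 distal regions inside Fech, in intron 2, were each called in the 2 h replicate 1 alone.

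Abcb10 (ENSMUSG00000031974.8, chr8:123952459-123983122) held the only one of the 61 regions that was gained at all 4 time points in the lists as deposited. Abcb10 +4.1 kb, in intron 1, was in neither 0 h library and in all 8 later libraries. Its ranks were 7311 and 8596 (2 h), 5313 and 6980 (6 h), 6056 and 2862 (12 h), and 1475 and 9149 (24 h). The gains held with lists of equal size. They also held with a score of at least 2 and without any single library, but neither setting could have ended them. The lowest score of the region was 3.8, and leaving out 1 library only loosens the rule. Genome-wide, 50 regions were in neither 0 h library and in all 8 later libraries. The region has no AGATAA or TGATAA within 100 bp of its median summit, but it holds AGATAG and TGATAG there, which were not searched for. Its 4 KLF matches overlap one another in a G-rich run at its 5′ end.

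Upstream of Abcb10, a pair of neighbouring distal regions was seen in different sets of libraries. Abcb10 -5.7 kb (chr8:123988516-123989263) was in all 10 libraries, at ranks from 2674 to 8213 with a median of 4486, and holds 2 GATA matches. Abcb10 -7.2 kb (chr8:123990014-123990686), with 2 GATA matches and a TAL1-GATA composite, was at 4328 and 10196 (0 h), at 8260 in the 2 h replicate 2 and at 5406 in the 6 h replicate 2. It had no peak in any 12 or 24 h library and was lost at both time points, with lists of equal size too. The promoter of Abcb10 had ranks of 4074 and 4560 (0 h), 6939 and 14203 (2 h), 9870 and 8059 (6 h), 9883 and 5510 (12 h), and 4953 in the 24 h replicate 2. Both 0 h libraries ranked above every later library. As a percent of the list they were above too (26.7% and 39%), but narrowly, with the 12 h replicate 2 at 39.8% and the 6 h replicate 2 at 40.6%. A further region gained at 24 h, Abcb10 +32.9 kb, lies at the promoter of Nup133, a nuclear pore gene, 983 bp from its start. The call ended with lists of equal size and with the widest window around summits.

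Gains and losses were then counted against the background of all regions with a peak in at least 1 of the 4 libraries of each comparison. Gained means a peak in both later libraries and in neither at 0 h, and lost means the reverse. An exact permutation test of presence in 2 against 2 libraries cannot reach the threshold, so none was run, and all time points share the same 0 h libraries. At 2 h, 2 of 54 member regions (3.7%) were gained (Uros +11.2 kb and Abcb10 +4.1 kb), against 3.67% of all regions, and 0 were lost, against 1.58%. At 6 h, 2 of 54 (3.7%) were gained (Fech +3.3 kb and Abcb10 +4.1 kb), against 5.08%, and 0 were lost, against 0.945%. At 12 h, 2 of 46 (4.35%) were gained (the same pair), against 3.4%, and 3 (6.52%) were lost (Alas2 +40.8 kb, Uros +6.8 kb and Abcb10 -7.2 kb), against 2.59%. At 24 h, 3 of 51 (5.88%) were gained (Uros +11.2 kb, Abcb10 +32.9 kb and Abcb10 +4.1 kb), against 2.4%, and 2 (3.92%) were lost (Alad +0.1 kb and Abcb10 -7.2 kb), against 4.93%. Without 24 h replicate 1, which loosens the rule, 4 were gained and 4 lost at 24 h. These are counts of 0 to 3 regions, and no test was made of them against the background.

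The longest-held gains lay in introns. A looser rule, chosen after the values were seen, asked for absence in both 0 h libraries and a peak in at least 6 of the 8 later ones. It held for 3 of the 61 member regions and 1.51% of all regions. All 3, Uros +11.2 kb, Fech +3.3 kb and Abcb10 +4.1 kb, were among the 8 distal regions inside the heme genes. The rule held for 1.69% of all distal regions inside a gene (176 of 10402). Since the rule was set on these regions, the comparison is a description.

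**Figure D4:**
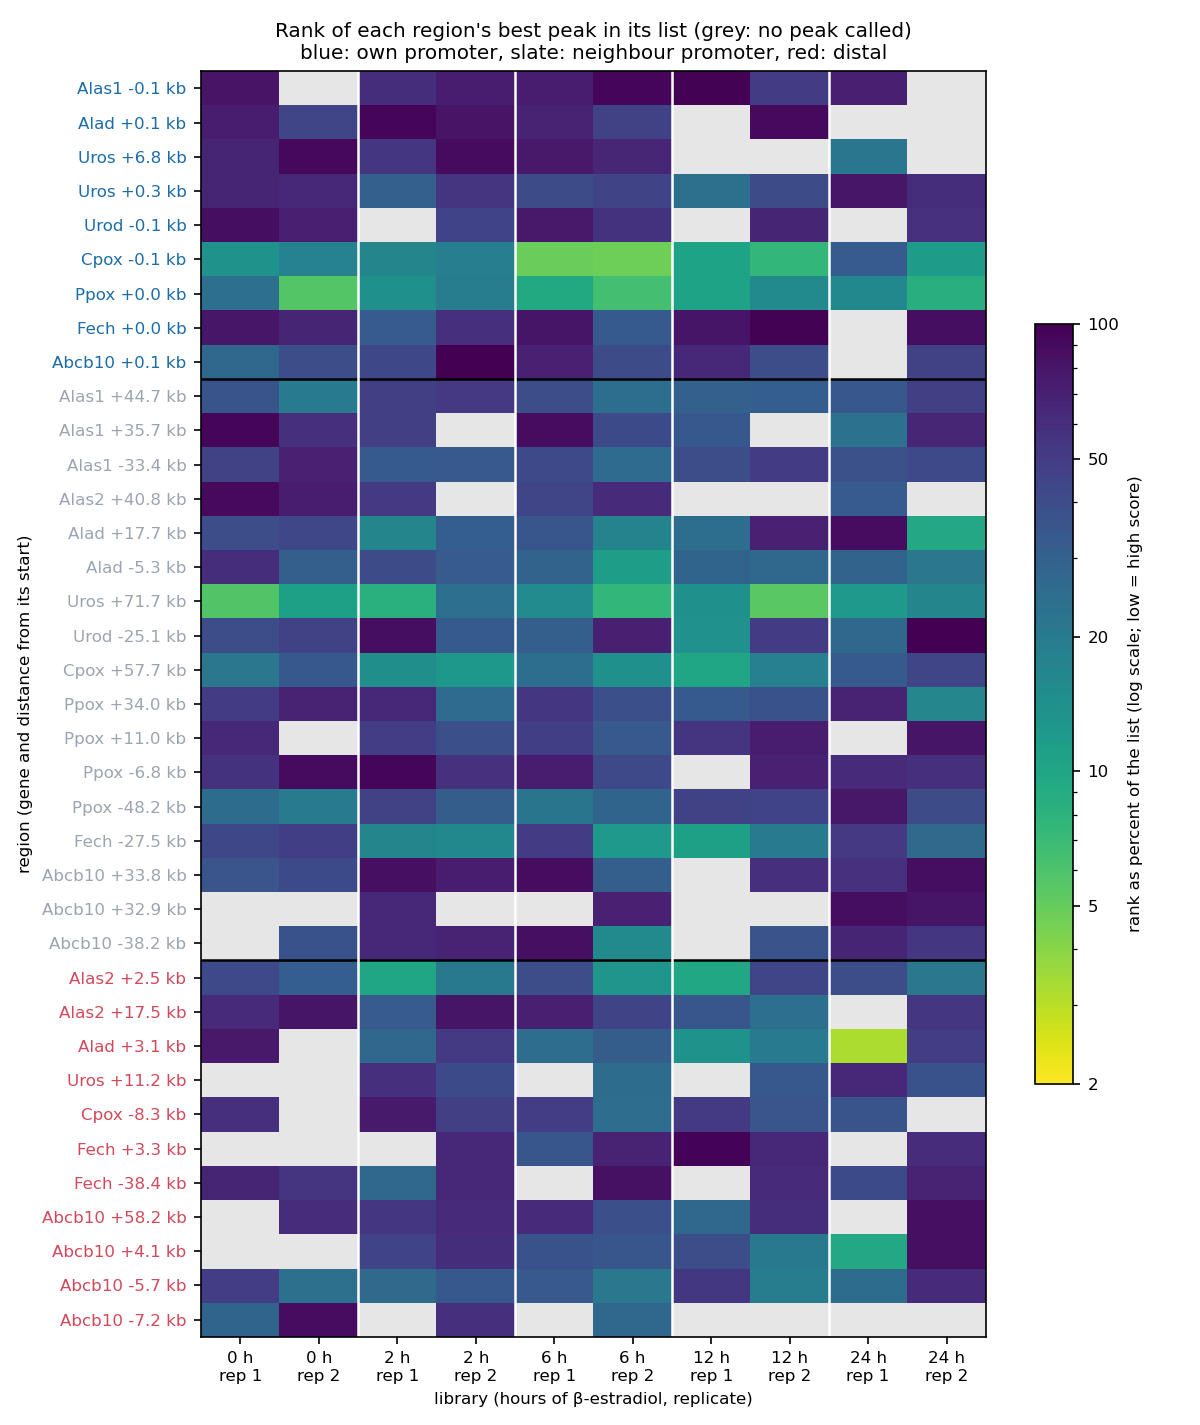
Rank of the best peak as a percent of its list (colour, log scale, yellow for high scores, grey for no peak) for the regions in at least 6 libraries or gained or lost at any time point (rows, named by gene and distance from its start) in the 10 libraries (columns). The grey cells of Abcb10 +4.1 kb are both at 0 h, those of Abcb10 -7.2 kb fill the 12 and 24 h columns, and 24 h replicate 1 is grey at the Urod, Fech and Abcb10 promoters.

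Ranks over time were tested in the 6234 regions with a peak in all 10 libraries, 15 of them around the heme genes. Of the 15, 10 were neighbouring promoters, 3 were own promoters and 2 were distal. Each region was given its percentile by score among the 6234 regions, where 100 is the highest. A slope over the order of the time points was fitted with limma. With Benjamini-Hochberg adjustment over all 6234 regions, 0 were called (0%), and 310 had an unadjusted p under 0.05. None of the 15 member regions had an unadjusted p under 0.05. The lowest was that of Ppox -48.2 kb, at the promoter of Dedd, with a slope of -7.82 ± 3.89 percentile points per time step (SE, n = 10, limma unadjusted p = 0.0606, adjusted p = 0.98). For Alas2 +2.5 kb the slope was 0.39 ± 5.12 points (SE, n = 10, limma adjusted p = 0.9999), for Uros +0.3 kb 1.31 ± 3.40, for Cpox -0.1 kb -0.12 ± 3.62 and for Ppox +0.0 kb 1.92 ± 3.23. The median slope of the 15 was 0.39 points, and that of all regions -0.02.

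Each later time point against 0 h gave the same count in limma, with 0 regions called (0%) at 2, 6, 12 and 24 h, and 183, 155, 166 and 240 regions at an unadjusted p under 0.05. None of the 15 member regions was among those. At 24 h the percentile of Alas2 +2.5 kb was 10.2 ± 24.7 points above that at 0 h (46.3 against 36.1) and that of Cpox -0.1 kb was 10.5 points lower (-10.54 ± 15.9, 58.5 against 69.1). The replicates of a time point differed by a median of 14.9 points in the 15 member regions and 17.3 points in all regions, and the SE of a difference between 24 h and 0 h ranged from 13.7 to 25.2 points over the 15. Regions called gained or lost, such as Abcb10 +4.1 kb, lack a peak in some library and could not enter this test.

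Motifs were compared with regions of the same class, within 100 bp of each median summit and on either strand. AGATAG and TGATAG were not counted as GATA motifs. A GATA motif was in 5 of the 10 own promoter regions (50%), against 6.91% of all promoter regions. The 5 were both Uros promoter regions, Urod +0.7 kb, Cpox -0.1 kb and Fech +0.0 kb, so 4 of the 8 genes with a promoter region were represented. In the promoter of Cpox the 2 matches lay 32 bp and 58 bp from the median summit, whereas in Urod and Fech the match lay 96 bp and 88 bp away, at the edge of the window. Of the 22 neighbouring promoters, 0 held a GATA motif. In the 8 distal regions inside the heme genes, 6 (75%) held one, against 41.3% of all distal regions inside a gene. Among the 6, Fech +10.2 kb and Fech +6.5 kb were each called in the 2 h replicate 1 alone, at 98.5% and 84.7% of its list. In all 29 distal regions 13 (44.8%) held one, against 38.5%. The KLF motif was in 6 of 10 own promoters (60%), against 56.7% of all promoter regions, and in 4 of 8 distal regions inside the genes (50%), against 23%. The core TGANTCA of NFE2 and AP-1 was in 2 of the 61 regions (3.28%), against 6.58%. A match is a run of letters and not a measured binding site, and the KLF and GATA motifs can both occur in 1 window.

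For context, 26 further genes of heme transport, iron-sulfur assembly and heme breakdown were examined at their promoters. Of these, 20 had a promoter peak in all 10 libraries, 2 in none (Slc25a37, the mitochondrial iron importer, and Flvcr2, a heme transporter) and 4 in some. Over all protein-coding genes, 26.4% had one in all 10 libraries and 55.5% in none. Fdx1, a ferredoxin, was the only gene of the list to meet the rule for loss, with a promoter peak in 7 libraries and in neither 24 h library, and 0 were gained. Of all genes with a promoter peak in both 0 h libraries, 1.64% lost theirs at 24 h. Among erythroid markers, Epor and Nfe2 had a promoter peak in all 10 libraries, Klf1 in 4, Tal1 in 2 and Slc4a1 in none. Among markers of other cell types, Cd3e, Alb, Myod1 and Neurod1 had none in any library, and the fibroblast gene Col1a1 had one in 8.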

How the data were processed

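ATAC-seq was measured in 10 libraries of G1E-ER4 cells, with time points and replicate numbers read from the titles. Per the study's methods, the authors removed adaptor sequence, aligned to mm10, retained unique alignments and ran MACS (no model) on each library. Bowtie2 is named there, and Bowtie 1.0.0 and MACS2 in the submitters' processing notes, so the aligner version is not settled, and no Tn5 shift is stated. The deposited score of each 1 bp summit is −log10 of the MACS q-value (lowest 1.30). Libraries were not brought to a common scale, and the score grows with depth, which is unknown, so only ranks within a list were used.

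Summits were widened by 250 bp, merged over all lists and annotated with GENCODE M21 (54361 starts of protein-coding transcripts; 4 to 5 mitochondrial peaks per list were left out). Positions are mm10, and sequences came from the GRCm38 reference with pysam 0.24.0. Rank percentiles were fitted with limma 3.58.1 (R 4.3.3, trend option, two-sided, adjusted p threshold 0.05). The code was tested on simulated data. The percentile differences between the replicates of each time point were correlated across time points. The correlations were 0.185 to 0.366 over 10 pairs of time points, a hint from the data that the numbers pair the libraries. The fits reported have no replicate block, which changed no call. Every member was described, with all own promoters and the distal regions that were in all libraries, changed or intragenic. The members and lists were chosen with earlier results of these data known. P-values measure only the spread between these libraries. Alternatives were lists of equal size, a stricter score, other windows, flanks and promoter distances, other rank scales, a replicate block and leaving out each library. Some marker genes are not reported here.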

Additional observations from a re-analysis of the deposited data

How the results depend on the processing

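The 61 regions, the 15 regions in all libraries and the 3 promoters in all libraries stayed within 1.5 times those counts under the stricter score and other window sizes. With lists of equal size there were 44 regions, 10 of them in all libraries, and 3 promoters in all libraries. With 20 kb instead of 50 kb on each side, 37 regions remained, 8 of them in all libraries. Lists of equal size changed the gained or lost regions from 2 to 4 at 2 h, where Alad +3.1 kb and Alas1 -0.1 kb were added, and from 5 to 3 at 12 h. With 100 kb on each side the counts were 4 at 2 h and 8 at 24 h. Leaving out 1 library relaxes the rule for gain and loss, and the counts then ranged from 2 to 11 at 2 h, 2 to 9 at 6 h, 5 to 12 at 12 h and 5 to 14 at 24 h. The promoters in all remaining libraries ranged from 3 to 6, with 6 only without 24 h replicate 1. In the rank fits, 0 member regions were called with the replicate block, so it changed no call, and 0 in all 31 alternatives. Without 24 h replicate 2, 3 regions genome-wide were called at 24 h, in a fit where the lone 24 h library is assumed to vary like the other time points. Depth is unknown, so a weak peak and closed chromatin cannot be told apart, and a list's length limits what it can show.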
